A study of Mus musculus with 6 samples.

Results

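The genes of glycolysis, glucose uptake and glycogen described here are 32 mouse genes given as a list of symbols, and their rows were found by matching Ensembl identifiers to GENCODE symbols. All 32 were found among the 23504 genes of the table. The list covers glucose and lactate transporters, the glycolytic enzymes above pyruvate kinase, the enzymes that regulate or bypass this route, and the enzymes of glycogen. The symbol Aldoa matched a second locus, ENSMUSG00000114515, with 0 to 5 fragments per library, and only the main Aldoa locus was used.

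The data come from bone marrow–derived macrophages (BMMs), macrophages grown in culture with M-CSF from the marrow of C57BL/6 male mice aged 6 to 8 weeks. RNA-seq was performed on 6 libraries, 3 from BMMs that received DASA-58 and 3 from BMMs that received DMSO, its solvent, and RNA was taken after 3 days. DASA-58 is an activator of pyruvate kinase M2 (PKM2), and the comparison asks how gene expression in RANKL-treated BMMs differs when it is present. By the study's results RANKL, the cytokine that drives BMMs toward osteoclasts, was given in both groups, whereas its RNA-seq methods and the design text of the series name RANKL only for the treated group. The same methods and design text write DASA-48 where the sample labels and the results write DASA-58, and no concentration is given for this experiment. The study speaks of 3 replicates for each group, and of independent replicates in describing its data, without saying whether the RNA-seq libraries came from separate mice or cultures, so the p-values measure the spread between these libraries, which may be technical.

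Glycolysis takes up glucose through transporters of the SLC2A (GLUT) family, traps it as glucose 6-phosphate by hexokinase and splits it into triose phosphates, which are carried on to phosphoenolpyruvate, the substrate of pyruvate kinase. Phosphofructokinase is the main point of control, and its activator fructose 2,6-bisphosphate is made and removed by the bifunctional PFKFB enzymes. Lactate leaves the cell through monocarboxylate transporters, and glucose can also be stored as the branched polymer glycogen and released from it by phosphorylase. Activated macrophages and differentiating osteoclasts are both known to use glycolysis heavily.

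The values are FPKM, that is, fragment counts divided by the length of the gene and the total of the library, so levels of different genes can be compared per length. The depth recovered from the steps of the values was 18191560 to 18968556 fragments per library. The tested genes of the list held between 81 and 32586 fragments in a library. The label of the cells was checked against markers. All 8 macrophage markers were tested, and 3 passed the test as higher and 1 as lower. Their summed level was 16412 to 17255 FPKM with DMSO and 17342 to 19651 FPKM with DASA-58. Most of this sum was Lyz2, at 14701 to 15513 FPKM with DMSO and 15447 to 17767 FPKM with DASA-58. Lyz2, named after its values were seen, overlapped between the groups and did not pass the test. Of 10 osteoclast markers 9 were tested and all 9 were lower, with a summed level of 778 to 833 FPKM with DMSO and 449 to 467 FPKM with DASA-58. Ctsk, for example, stood at 52.2% and Acp5 at 53.2% of their DMSO level. Of 6 neutrophil markers 5 were tested and 3 were lower, with summed levels of 119 to 126 and 96.1 to 101 FPKM. Over all tested genes 4.24% passed the test as higher and 7.28% as lower. The summed levels of 5 stromal markers overlapped at 34.3 to 36.4 and 34.7 to 35.7 FPKM. The T and NK cell markers summed to at most 1.52 FPKM and the B cell markers to at most 2.38 FPKM in any library. The part of these cell types in the changes below was not tested, and in RNA from whole cultures fewer cells of a type and less RNA per cell cannot be told apart.

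The filter, a mean over all libraries of 1 FPKM or more, left 31 of the 32 genes and 10965 genes in all. Differences were tested with limma on log2(FPKM + 1), fold changes are given on that scale with their standard error (SE), and p-values were adjusted over the 10965 genes by the Benjamini-Hochberg (BH) procedure. With DASA-58, 6 of the 31 genes were higher and 2 were lower past the threshold of 0.05. Hk3, Aldoa, Aldoc, Pfkfb4, Pygl and Gbe1 rose, and Slc2a6 and Slc16a1 fell. The 6 higher genes are 19.4% of the list, where 4.24% of all tested genes were higher. The 2 lower genes are 6.45%, a share near the 7.28% of all tested genes that were lower. The list was chosen with earlier results of these data known, so its shares are not independent of those results. All changes were small, with log2 fold changes from -0.35 for Slc2a6 to 0.37 for Aldoc. The median log2 fold change was 0.04 for the list and -0.03 for all genes tested. The 3 DASA-58 libraries all lay above the 3 DMSO libraries in 11 of the 31 genes (35.5%, against 11.8% of all tested genes) and all below them in 4 (12.9%, against 21.6%), where 33.4% of all tested genes were free of overlap in either direction. With 3 libraries a group the smallest two-sided p of an exact permutation test is 0.10, and each of the 8 called genes gave p = 0.10. The number of higher genes of the list was 9 with a trimmed mean of log ratios, 8 with median centring and 8 with quantile normalization, while the number of lower genes was 2 in each. Higher calls among all 10965 genes also became more numerous, from 465 in the deposited scaling to 600, 597 and 600 in the same order. Lower calls among them went from 798 to 509, 504 and 588. Over all genes tested, 63.2% of the calls were lower in the deposited scaling, and this share was 45.8% after median centring, 45.9% after the trimmed mean, 49.5% after quantile normalization, 69.7% with voom and 71.5% with equal library totals.

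**Figure D1:**
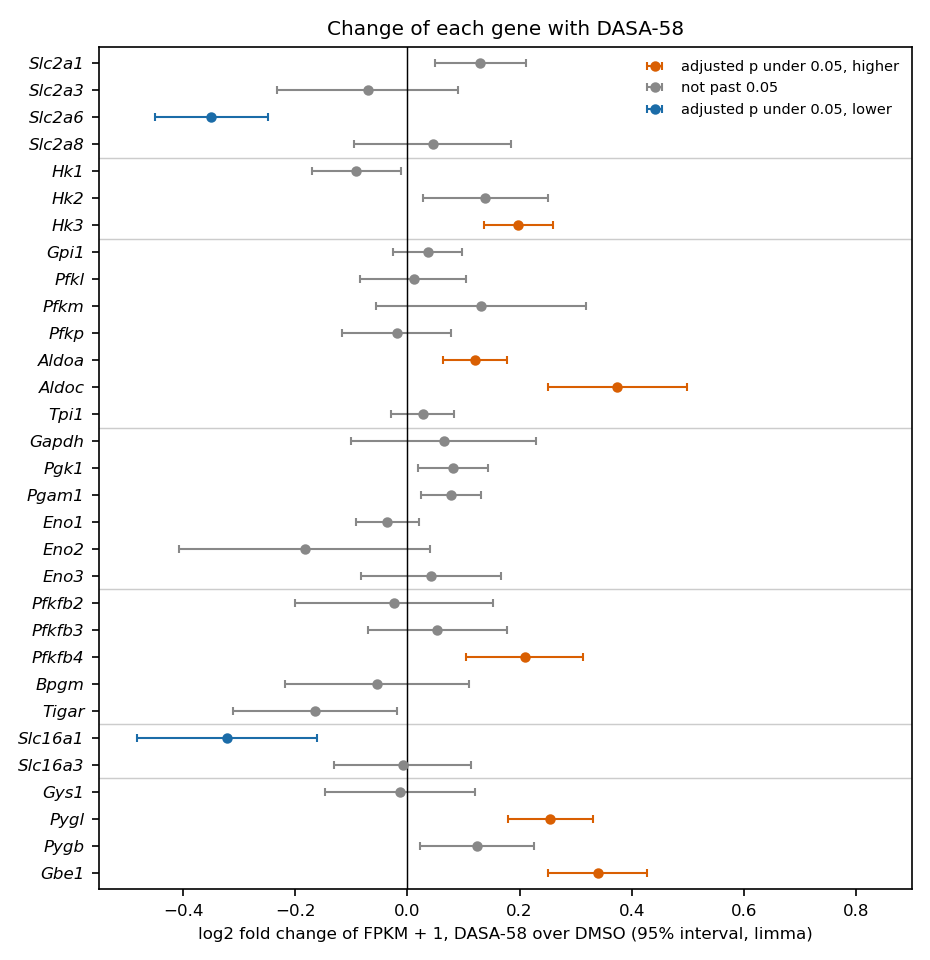
Log2 fold change of FPKM + 1 (DASA-58 over DMSO, x axis) for the 31 tested genes, ordered by role from glucose transporters at the top to glycogen enzymes at the bottom, with 95% intervals from limma and colour for the call. The 6 higher genes lie between 0.12 and 0.37 and the 2 lower genes at -0.32 and -0.35, while most intervals of the other genes cover 0.

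Of the 8 called genes, 5 kept the same direction and an adjusted p under 0.05 under each of 18 other settings, namely Hk3, Aldoc, Pygl and Gbe1, which were higher, and Slc2a6, which was lower. The other 3 calls were lost when certain single libraries were left out and also under some settings that kept all libraries, while their direction did not change. For Aldoa the adjusted p was 0.060, 0.051, 0.073 and 0.083 when DMSO replicate 1 or DASA-58 replicate 1, 2 or 3 was left out (limma). With all libraries the adjusted p of Aldoa was 0.076 with no filter, 0.083 with no variance trend and 0.052 with no variance shrinkage, and its log2 fold change stayed between 0.10 and 0.15 in all settings (limma). For Pfkfb4 it was 0.064 without DMSO replicate 2 or 3, 0.082 without DASA-58 replicate 1 and 0.081 without DASA-58 replicate 3, and with all libraries 0.063 with no filter and 0.074 with no variance shrinkage (limma). For Slc16a1 it was 0.080, 0.055, 0.074 and 0.071 without DMSO replicate 1 or 2 or DASA-58 replicate 1 or 2, and with all libraries 0.089 with no filter, 0.11 with no variance shrinkage and 0.063 with the replicate number as a block (limma).

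The bases just upstream of 5 genes are shown, those whose direction and call held under every setting. The size of their change did vary with the setting, for Aldoc from 0.22 to 0.44 on the log2 scale. The sequences are the 250 bases before the RefSeq start of each gene in GRCm38.p6, 5′ to 3′ on the strand of the gene, with ACGTG and GCGTG in capitals on either strand, where the opposite strand reads CACGT and CACGC. These letters are the core of the motif bound by the hypoxia-inducible factor HIF-1, a known activator of glycolytic genes. For Aldoc the first of its 2 RefSeq windows is given. The windows are chr13:55021386-55021635 (minus strand) for Hk3, chr11:78322823-78323072 (plus strand) for Aldoc, chr12:70227684-70227933 (minus strand) for Pygl, chr16:70313699-70313948 (plus strand) for Gbe1 and chr2:27027999-27028248 (minus strand) for Slc2a6.
Hk3: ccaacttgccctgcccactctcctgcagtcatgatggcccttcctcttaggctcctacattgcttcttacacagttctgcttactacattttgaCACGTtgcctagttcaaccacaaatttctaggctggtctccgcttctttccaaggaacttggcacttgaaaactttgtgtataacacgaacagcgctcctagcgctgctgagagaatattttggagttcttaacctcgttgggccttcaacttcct
Aldoc: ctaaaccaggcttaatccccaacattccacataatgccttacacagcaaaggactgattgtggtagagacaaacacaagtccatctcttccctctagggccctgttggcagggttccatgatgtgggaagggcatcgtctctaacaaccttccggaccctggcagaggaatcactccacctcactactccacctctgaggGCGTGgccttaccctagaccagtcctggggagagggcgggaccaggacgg
Pygl: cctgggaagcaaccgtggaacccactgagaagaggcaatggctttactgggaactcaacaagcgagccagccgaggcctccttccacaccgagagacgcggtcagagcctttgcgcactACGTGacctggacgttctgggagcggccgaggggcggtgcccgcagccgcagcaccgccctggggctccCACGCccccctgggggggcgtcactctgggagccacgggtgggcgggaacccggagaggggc
Gbe1: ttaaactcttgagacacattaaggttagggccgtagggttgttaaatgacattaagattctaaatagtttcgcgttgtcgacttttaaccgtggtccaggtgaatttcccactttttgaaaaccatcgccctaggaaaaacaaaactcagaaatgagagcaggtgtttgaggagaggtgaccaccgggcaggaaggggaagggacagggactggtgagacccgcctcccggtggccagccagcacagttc
Slc2a6: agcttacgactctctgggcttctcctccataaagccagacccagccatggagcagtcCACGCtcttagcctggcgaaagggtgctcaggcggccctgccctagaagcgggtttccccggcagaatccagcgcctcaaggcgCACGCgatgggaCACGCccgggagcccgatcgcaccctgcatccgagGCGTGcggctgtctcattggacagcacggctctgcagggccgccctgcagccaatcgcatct

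The window of Slc2a6, which fell, holds 4 matches, all to GCGTG, and that of Pygl holds 1 match to each. Hk3 has 1 ACGTG, the first window of Aldoc has 1 GCGTG, and the window of Gbe1 holds 0 of either. A window was found for 31 of the 32 genes, and 23 of these genes had ACGTG or GCGTG in at least 1 of their 43 windows in all, with 32 of the 43 windows holding it. Of all 32851 RefSeq windows of the same length 38.6% hold it. The letters stood in at least 1 window of 5 of the 6 higher and 2 of the 2 lower genes. The share of 38.6% is per window, and a share per gene over all genes was not computed. Both words contain CG, and the median share of G and C bases over all windows was 52.4%. In the windows shown it was 47.2% for Hk3, 55.2% for Aldoc, 69.2% for Pygl, 48.8% for Gbe1 and 65.2% for Slc2a6. The part of base content in the matches was not tested. CACGTG, the E box that contains ACGTG, stood in 4 of the 43 windows and in 6.0% of all windows. TGACNNNGC, the core of the element bound by NRF2, was also in 4 of the 43 windows and in 10.2% of all windows. A match describes the letters only.

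**Figure D2:**
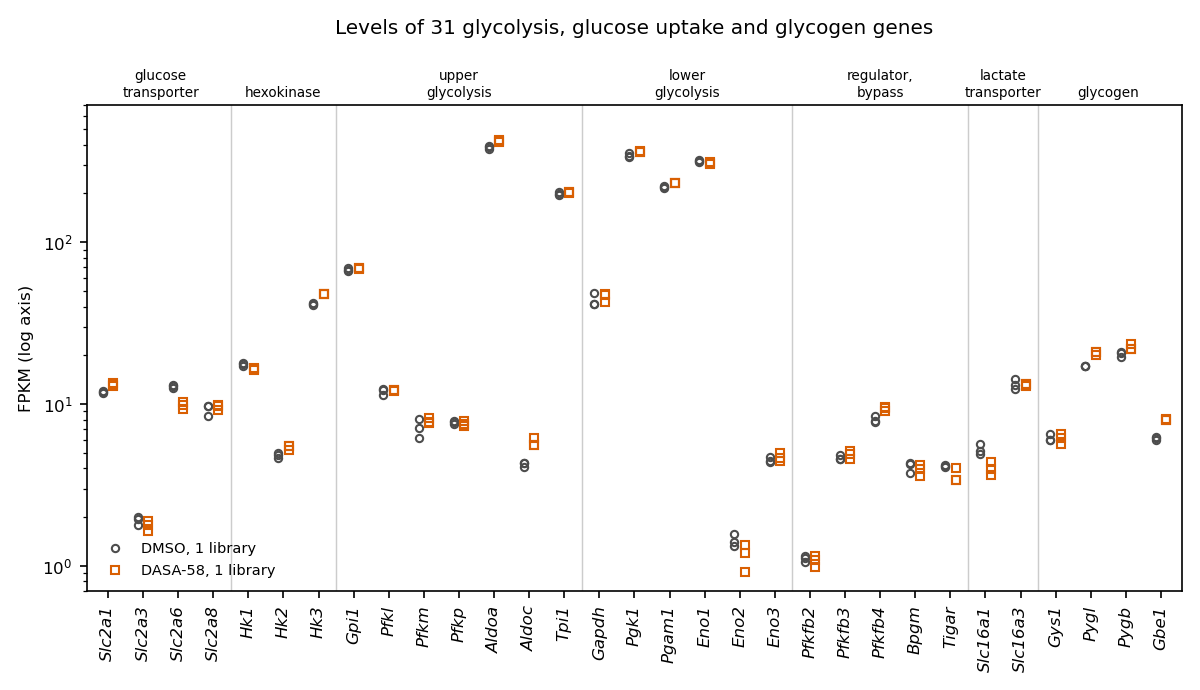
FPKM of the 31 tested genes in each of the 6 libraries (log axis), grouped by role, with circles for DMSO and squares for DASA-58. The 5 most abundant genes, Aldoa, Pgk1, Eno1, Pgam1 and Tpi1, have means from 201 FPKM for Tpi1 to 403 FPKM for Aldoa, while Hk3, with a mean of 44.5 FPKM, is the highest of the transporters, hexokinases and regulators.

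The levels of the list spanned a wide range. Aldoa, Pgk1, Eno1, Pgam1 and Tpi1 had means over all libraries of 403, 352, 312, 226 and 201 FPKM, and Gpi1 followed with 68.3 FPKM. Gapdh, which takes the step between Tpi1 and Pgk1, had a mean of 44.8 FPKM. Part of the sequence of several of these genes also occurs elsewhere, and of the 50-base words in its transcripts Pgk1 shared 53.9%, Pgam1 36.2%, Eno1 26.0% and Gapdh 25.1% with other annotated genes, in the case of Gapdh with 223 of them. How reads that fit several genes were counted is not given in the sources used here, so the levels of these 4 genes are uncertain. Gpi1 and Pfkfb2 shared 15.8% and 17.3% and the other 26 genes at most 8.83%. Hk1 shares 1.22% with its antisense gene Hk1os, and without a stated strand setting reads of the pair cannot be told apart. Of the 8 called genes, 6 shared no such word, and Pygl and Aldoa shared 0.53% and 6.43%.

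Of the 4 glucose transporters 1 fell (25%, against 7.28% of all tested genes) and 3 did not pass the test. Slc2a6 encodes GLUT6, a transporter of intracellular membranes in macrophages. It was at 13.0, 12.5 and 12.9 FPKM in the DMSO libraries and at 9.81, 10.3 and 9.36 FPKM in the DASA-58 libraries. All DASA-58 libraries lay below all DMSO libraries, and the mean fell from 12.8 ± 0.249 to 9.84 ± 0.491 FPKM (SD, n = 3 each), which is 76.8% of DMSO. The log2 fold change was -0.35 (SE 0.044, limma with BH, adjusted p = 0.0028). Slc2a1 encodes GLUT1, the main glucose carrier of the plasma membrane in most cells. It was at 11.8, 11.9 and 12.1 FPKM with DMSO and at 12.9, 13.1 and 13.4 FPKM with DASA-58. The groups did not overlap, and the adjusted p was 0.053 (limma, log2 fold change 0.13, 95% interval 0.05 to 0.21). It was 0.031 to 0.034 with quantile normalization, centring on the median or the trimmed mean, and 0.046 with a filter of 5 FPKM. Slc2a3 and Slc2a8, the genes of the high-affinity carrier GLUT3 and of the intracellular GLUT8, overlapped between the groups, with intervals of -0.23 to 0.09 and -0.10 to 0.19 on the log2 scale.

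Within the summed FPKM of these 4 transporters, the share of Slc2a6 was 35.7% ± 0.96 with DMSO and 28.7% ± 1.34 with DASA-58, and that of Slc2a1 was 33.2% ± 1.11 and 38.3% ± 0.84 (SD, n = 3 each). The order of the pair was thus reversed, since Slc2a6 was above Slc2a1 in each DMSO library and below it in each DASA-58 library. The summed FPKM of the 4 transporters was 35.2 to 36.4 with DMSO and 34.2 to 34.5 with DASA-58. Shares were compared for 22 genes in 8 families. In 11 of the 22 the groups did not overlap, which gave p = 0.10 in the exact permutation test, the smallest it allows, and 0.20 after Benjamini-Hochberg adjustment over the 22. Shares within a family add up to the whole and are not independent of each other.

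**Figure D3:**
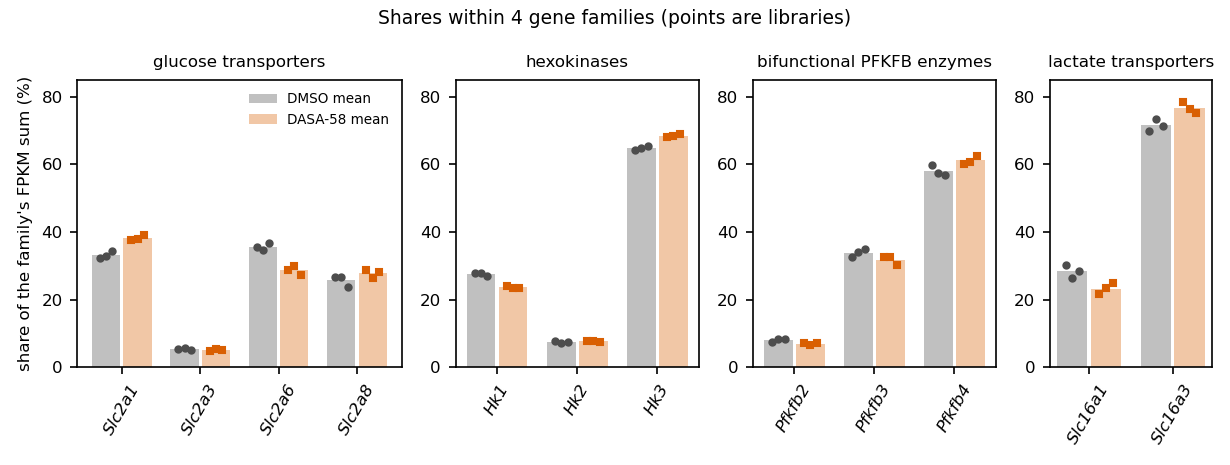
Share of each gene in the summed FPKM of its family (y axis, percent) for 4 families, with bars for the mean of 3 libraries and points for single libraries, grey for DMSO and orange for DASA-58. Slc2a6, Hk1, Pfkfb2, Pfkfb3 and Slc16a1 take smaller shares and Slc2a1, Hk3, Pfkfb4 and Slc16a3 larger shares with DASA-58, without overlap between the libraries of the groups.

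Hexokinases catalyze the first step inside the cell, and Hk3, the form typical of myeloid cells, was the most abundant of them. Hk3 was at 40.8, 41.8 and 41.7 FPKM with DMSO and at 47.6, 47.5 and 47.8 FPKM with DASA-58. The libraries of each group lay close together and the groups did not overlap, with means of 41.4 ± 0.559 and 47.6 ± 0.173 FPKM (SD, n = 3 each), or 115% of DMSO. The log2 fold change was 0.20 (SE 0.027, limma with BH, adjusted p = 0.0038). Hk2, the inducible form, was at 5.003, 4.62 and 4.80 FPKM with DMSO and at 5.50, 5.49 and 5.20 FPKM with DASA-58 (limma, log2 fold change 0.14, adjusted p = 0.11). Hk1, the widely expressed form, was at 17.7, 18.0 and 17.1 FPKM with DMSO and at 16.7, 16.3 and 16.3 FPKM with DASA-58 (limma, log2 fold change -0.09, adjusted p = 0.13). Neither passed the threshold, although the groups did not overlap in either gene. For Hk2 the adjusted p was 0.046 with quantile normalization, and for Hk1 it was 0.048 with voom weights on the recovered fragments (limma). The share of Hk3 in the hexokinases was 64.9% ± 0.63 with DMSO and 68.6% ± 0.39 with DASA-58, and the share of Hk1 was 27.6% ± 0.57 and 23.7% ± 0.22 (SD, n = 3 each, exact permutation p = 0.10).

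In the upper part of glycolysis both aldolases rose, and the other 5 genes did not pass the test. The 2 are 28.6% of the 7 genes, where 4.24% of all tested genes were higher. Aldolase splits fructose 1,6-bisphosphate. Aldoc, the form best known from brain, was at 4.29, 4.29 and 4.09 FPKM with DMSO and at 5.55, 5.59 and 6.19 FPKM with DASA-58. It reached 137% of DMSO, with a log2 fold change of 0.37 (SE 0.053, limma with BH, adjusted p = 0.0048), which was the largest of the list. Aldoa, the main form, was at 388, 393 and 378 FPKM with DMSO and at 415, 421 and 425 FPKM with DASA-58. The log2 fold change of Aldoa was 0.12 (SE 0.025, limma with BH, adjusted p = 0.020), a mean of 109% of DMSO. Aldoc made up 1.08% ± 0.01 of the aldolase FPKM with DMSO and 1.36% ± 0.07 with DASA-58 (SD, n = 3 each). Aldoc held 243 to 264 fragments per DMSO library and 332 to 383 per DASA-58 library, so it rests on far fewer fragments than Aldoa.

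Gpi1, which interconverts glucose and fructose 6-phosphate, and Tpi1, which interconverts the triose phosphates, had 95% intervals of -0.03 to 0.10 and -0.03 to 0.08 on the log2 scale. The phosphofructokinase genes Pfkl and Pfkp gave -0.08 to 0.11 and -0.12 to 0.08. Their log2 fold changes of 0.01 and -0.02 changed sign with the scaling between libraries. Pfkm, the muscle form, varied more, at 8.07, 6.19 and 7.09 FPKM with DMSO and 8.19, 7.68 and 7.68 FPKM with DASA-58 (interval -0.06 to 0.32). Pfkl accounted for 44.8% ± 2.22 of the phosphofructokinase FPKM with DMSO and 44.0% ± 0.17 with DASA-58 (SD, n = 3 each, exact permutation p = 1.0).

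In the lower part of glycolysis 0 of 6 genes passed an adjusted p under 0.05 with limma and 0 with voom weights, and 2 of the 6 had an unadjusted p under 0.05. These were Pgk1, which makes ATP from 1,3-bisphosphoglycerate, and Pgam1, which moves the phosphate to the next carbon. Pgk1 was at 339, 334 and 353 FPKM with DMSO and at 362, 361 and 363 FPKM with DASA-58 (limma, log2 fold change 0.08, adjusted p = 0.095). For Pgam1 the values were 216, 223 and 219 FPKM and 232, 231 and 232 FPKM (limma, log2 fold change 0.08, adjusted p = 0.070). In both genes the groups did not overlap. Pgk1 passed the threshold without DMSO replicate 3 (limma, adjusted p = 0.047) and with the trimmed mean (0.045), and Pgam1 with centring on the median (0.047) or the trimmed mean (0.040). Eno1, the main enolase, had an interval of -0.09 to 0.02 and Gapdh of -0.10 to 0.23 on the log2 scale. Gapdh was at 41.3, 48.8 and 41.3 FPKM with DMSO and at 47.7, 42.6 and 47.1 FPKM with DASA-58, so that its libraries overlapped. Eno1 held 98.2% ± 0.05 of the enolase FPKM with DMSO and 98.2% ± 0.11 with DASA-58 (SD, n = 3 each), and Eno2 and Eno3, known from neurons and muscle, overlapped between the groups.

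Of the 5 tested regulators Pfkfb4 alone passed the test, 20% of them, where 4.24% of all tested genes were higher. Pfkfb4 was at 8.38, 7.69 and 7.83 FPKM with DMSO and at 9.55, 9.09 and 9.45 FPKM with DASA-58. All DASA-58 libraries were above all DMSO libraries, at 118% of DMSO, with a log2 fold change of 0.21 (SE 0.045, limma with BH, adjusted p = 0.024). Pfkfb3, its relative with the higher kinase activity, had an interval of -0.07 to 0.18 and Pfkfb2 of -0.20 to 0.15 on the log2 scale. Pfkfb4 took 58.0% ± 1.54 of the PFKFB sum with DMSO and 61.2% ± 1.20 with DASA-58 (SD, n = 3 each, exact permutation p = 0.10). Tigar, whose product lowers fructose 2,6-bisphosphate, was at 4.08, 4.21 and 4.13 FPKM with DMSO and at 3.99, 3.38 and 3.40 FPKM with DASA-58 (limma, log2 fold change -0.17, adjusted p = 0.14). Its groups did not overlap, although DASA-58 replicate 1 lay close to the DMSO libraries. Bpgm, which makes 2,3-bisphosphoglycerate, had an interval of -0.22 to 0.11 on the log2 scale. Fbp1, the gluconeogenic enzyme that reverses the phosphofructokinase step, held 0 to 3 fragments per library, at or under the limit of 3 fragments that a count of 0 allows, and was not tested.

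The pair of lactate transporters differed in their tests. Slc16a1 encodes MCT1, which carries lactate in both directions. It was at 5.64, 5.14 and 4.94 FPKM with DMSO and at 3.66, 3.95 and 4.37 FPKM with DASA-58. All DASA-58 libraries were below all DMSO libraries, at 76.2% of DMSO, with a log2 fold change of -0.32 (SE 0.069, limma with BH, adjusted p = 0.024). Slc16a3 encodes MCT4, the exporter of highly glycolytic cells, and was at 13.0, 14.3 and 12.4 FPKM with DMSO and 13.3, 12.9 and 13.2 FPKM with DASA-58. Its log2 fold change was -0.01 with an interval of -0.13 to 0.11, and the sign turned with 3 of the scalings. The share of Slc16a1 in the sum of both was 28.4% ± 1.92 with DMSO and 23.3% ± 1.65 with DASA-58 (SD, n = 3 each, exact permutation p = 0.10, adjusted p = 0.20 over 22 shares).

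Of the 4 glycogen genes 2 rose, or 50%, where 4.24% of all tested genes were higher. Gbe1, the branching enzyme of glycogen synthesis, was at 6.03, 6.16 and 6.24 FPKM with DMSO and at 7.99, 8.01 and 8.11 FPKM with DASA-58. The groups were tight and did not overlap, at 131% of DMSO, and its log2 fold change was 0.34 (SE 0.038, limma with BH, adjusted p = 0.0017), the smallest p of the list. Pygl, the liver form of glycogen phosphorylase, was at 17.2, 17.1 and 17.1 FPKM with DMSO and at 20.96, 20.05 and 20.9 FPKM with DASA-58. It reached 120% of DMSO, with a log2 fold change of 0.25 (SE 0.033, limma with BH, adjusted p = 0.0030). Pygb, the brain form, was at 20.8, 20.9 and 19.6 FPKM with DMSO and at 21.8, 23.5 and 21.8 FPKM with DASA-58 (limma, log2 fold change 0.12, adjusted p = 0.11). The groups of Pygb did not overlap either. Gys1, the synthase itself, was at 6.02, 5.99 and 6.53 FPKM with DMSO and at 6.49, 5.66 and 6.198 FPKM with DASA-58, with an interval of -0.15 to 0.12 on the log2 scale and a sign that turned with 3 of the scalings. The summed FPKM of the 4 genes was 49.5 to 50.1 with DMSO and 57.0 to 57.2 with DASA-58.

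A further list, also chosen with earlier results of these data known, held other genes of carbohydrate metabolism outside the 32. Of its 74 genes 43 were tested, and 4 were higher and 3 lower (limma, adjusted p under 0.05), with a median log2 fold change of -0.02. These are 9.3% higher, against 4.24% of all tested genes, and 6.98% lower, near the 7.28% of all tested genes. Ugp2, which makes the UDP-glucose used for glycogen, was at 28.7, 30.1 and 30.2 FPKM with DMSO and at 35.2, 36.7 and 35.4 FPKM with DASA-58 (limma, log2 fold change 0.26, SE 0.034, adjusted p = 0.0031). Pgm2l1, which makes glucose 1,6-bisphosphate, rose to 134% of DMSO (limma, log2 fold change 0.33, adjusted p = 0.011). These were the 2 called genes among 16 tested genes of glycogen and glucose 1-phosphate outside the 32. They are 12.5% of the 16, where 4.24% of all tested genes were higher. Pcx, pyruvate carboxylase, also rose to 134% of DMSO (limma, log2 fold change 0.33, adjusted p = 0.016, or 0.052 without DASA-58 replicate 1). Emb, a chaperone of lactate transporters named after its value was seen, was the fourth higher gene, with a log2 fold change of 0.20 (limma, adjusted p = 0.028).

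The 3 lower genes all belong to the 9 tested genes of glucose-responsive control, of which they are 33.3%. Of the 43 tested genes of the further list they are 6.98%, near the 7.28% of all tested genes. Txnip, which restrains glucose uptake and is induced by glucose phosphates, was at 89.2, 88.1 and 88.9 FPKM with DMSO and at 77.3, 74.7 and 77.1 FPKM with DASA-58 (limma, log2 fold change -0.21, SE 0.026, adjusted p = 0.0026). Its relative Arrdc4, which responds to glucose in the same way, fell to 79.8% of DMSO (limma, log2 fold change -0.29, adjusted p = 0.015, or 0.054 without DMSO replicate 1). Myc, a known activator of glycolytic genes, fell to 63.9% of DMSO (limma, log2 fold change -0.62, adjusted p = 0.0012). Pkm, which encodes the PKM2 that DASA-58 activates, had an interval of -0.06 to 0.05 on the log2 scale and a sign that turned with 3 of the scalings.

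**Figure D4:**
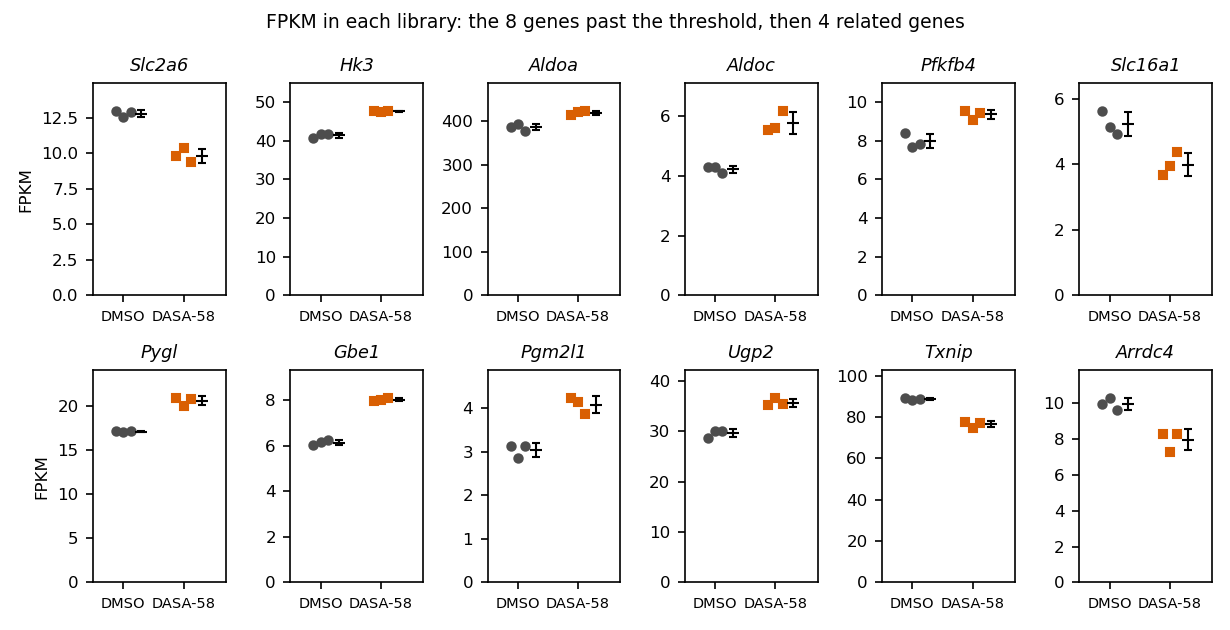
FPKM (y axis, from 0) of single libraries with DMSO (grey circles) and DASA-58 (orange squares) for the 8 called genes of the list and for Pgm2l1, Ugp2, Txnip and Arrdc4, with the mean and SD of 3 libraries in black. In all 12 genes the libraries of the groups do not overlap, and Aldoc, at 137% of DMSO, has the largest ratio of means. All 12 had an adjusted p under 0.05 (limma) in these same libraries, so the lack of overlap is not separate support.

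The 23 genes of the list that did not pass the test had 95% intervals that together reached from -0.41 to 0.32 on the log2 scale. In 16 of them the groups overlapped, in 5 the DASA-58 libraries all lay above the DMSO libraries and in 2 all below. Over all tested genes, called or not, the groups were free of overlap in 33.4%, with 11.8% above and 21.6% below. The interval of 7 of the 23 did not include 0, on the higher side for Slc2a1, Hk2, Pgk1, Pgam1 and Pygb and on the lower side for Hk1 and Tigar. The share of such intervals over all tested genes was not computed.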

How the data were processed

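The authors deposited FPKM values, fragment counts divided by gene length and library total, in 1 table of 23504 genes for 6 libraries. The submitters' processing notes name HISAT2 2.1.0, HTSeq 0.6.0 and the build mm8, with no role stated. The annotation, the strand setting and the treatment of reads that fit several genes are not given in the sources used here. Each column was assigned to its group by the sample titles and treatment labels, and 0 value columns were left over. Symbols and gene lengths were taken from GENCODE mouse release M21 (GRCm38), which matched 23455 identifiers. With these lengths the FPKM values gave whole fragments (within 0.05) in all libraries for 91.2% of the genes and for 29 of the 32 genes described, the exceptions being Aldoa, Pfkm and Pgam1. Fragment counts state the depth and enter only an added voom fit. The limit of a count of 0, 3 fragments, covers counting error only.

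The comparison of DASA-58 with DMSO used limma 3.58.1 (lmFit, eBayes with a variance trend, R 4.3.3) on log2(FPKM + 1). Genes needed a mean over all libraries of 1 FPKM or more, p-values were adjusted over every tested gene by the Benjamini-Hochberg procedure, and the threshold was 0.05. Adding 1 FPKM makes the fold changes of low genes smaller than those of the FPKM themselves. Family shares were compared with an exact two-sided permutation test in Python 3.11.15. The statistics were checked on simulated counts, with no change or with changes larger than any of the list. Changes of the size reported here were not among those simulated. Alternatives were other pseudocounts (0.1 and 5), no filter or one of 5 FPKM, other scalings (quantile, trimmed mean, median, totals), limma without trend or without shrinkage, a replicate block, and leaving out single libraries. The voom fit was chosen after seeing the data.

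The 32 genes, the further gene lists and the tests were chosen with earlier results of these data known. The genes named are all 32, the 6 genes of the further list with the smallest p among those past the threshold, Pkm, and the osteoclast genes Ctsk and Acp5. Emb and the macrophage marker Lyz2 were added after their values were seen. Promoter sequences are from RefSeq (GRCm38.p6), a build other than the one the notes name. Shared sequence was counted as 50-base words of GENCODE M21 transcripts found in another gene on either strand. Figures were drawn with matplotlib 3.10.9.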

Additional observations from a re-analysis of the deposited data

How the results depend on the processing

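No called gene of the 32 changed its direction under the 18 alternatives, and the number of higher genes lay between 4 and 9 in all of them (6 in the reported fit). The number of lower genes fell from 2 to 1 with no filter on low values, with a mean of at least 5 FPKM (which leaves out Slc16a1), without variance shrinkage and with the replicate block, and lay between 1 and 2 when single libraries were left out, and it was 3 with voom weights. The further carbohydrate genes called numbered 7 in the reported fit, 4 with no filter, 4 without variance shrinkage and 12 with voom weights. Over all genes tested 1263 were called, against 629 with no filter, 541 without variance shrinkage, 2110 with voom weights, and 667 to 977 when a library was left out, the lowest without DMSO replicate 1. The cause was not tested.

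The signs that turned belong to genes whose log2 fold change was near 0. With quantile normalization, centring on the median and the trimmed mean the values were 0.007, 0.007 and 0.006 for Pfkp, 0.022, 0.018 and 0.018 for Slc16a3, 0.016, 0.013 and 0.011 for Gys1, and 0.045, 0.026 and 0.028 for Pkm. Eno1 had 0.001 with quantile normalization, Pfkfb2 had 0.009 with quantile normalization and 0.002 with centring on the median, and Pfkl had -0.006 with equal library totals. With single libraries left out, the values ranged from -0.018 to 0.076 for Slc2a8, from -0.024 to 0.031 for Pfkl, from -0.044 to 0.001 for Pfkp, from -0.049 to 0.006 for Pfkfb2, from -0.053 to 0.046 for Slc16a3, from -0.052 to 0.033 for Gys1 and from -0.015 to 0.007 for Pkm. Of the family shares, the difference (DASA-58 minus DMSO, in percentage points) ranged from -0.32 to 0.04 for Slc2a3, from -1.6 to 0.42 for Pfkl and from -0.04 to 0.06 for Eno1.

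The labels give both groups the replicate numbers 1 to 3, but same-numbered libraries did not deviate together, with correlations of -0.015, 0.016 and -0.016 across genes. With the replicate block 6 genes of the 32 were higher and 1 was lower, and 957 genes in all were called. It changed no other call among the 32 genes than that of Slc16a1. Fbp1 held at most 3 fragments in a library and was not tested.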
